A study of Mus musculus with 17 samples.

Results

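The genes described here encode the secreted and membrane-bound metalloproteases that cut the extracellular matrix, and the tissue inhibitors that block them. They were taken by name from the authors' table of read counts: every protein-coding gene whose symbol is Mmp, Timp, Adamts or Adamtsl followed by a number. The rule found 51 of the 43346 genes in the table, namely 23 Mmp, 19 Adamts, 5 Adamtsl and 4 Timp genes, and used no measured value. The 17 libraries held RNA from mouse bile duct. The series concerns extrahepatic cholangiocarcinoma, cancer arising in the bile ducts beyond the liver. Every library carried the label bile duct, with no strain, genotype, treatment, time or age, and nothing in the labels tells which libraries, if any, came from tumours or from separate animals. The count columns were named by 6 codes, R62848, R62850, R63289, R63494, R63496 and R63500, with 3 libraries each and 2 in R63494. The meaning of a code was not stated, and it is not known whether libraries of a code share an animal. Differences between codes were therefore set against the spread among libraries of a code, which may be technical, and no comparison of conditions was possible.

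Matrix metalloproteases (MMPs) are zinc enzymes made as inactive precursors and switched on when a prodomain is removed. Together they cut collagens, laminins, elastin and many cell-surface proteins. TIMPs bind the active site of MMPs and block it, while ADAMTS enzymes process procollagens and cut proteoglycans, and the ADAMTS-like proteins resemble them but lack the protease domain. In tissue around bile ducts these genes are known from injury, scarring and tumour invasion, where fibroblasts, epithelium, macrophages and neutrophils each make their own subset.

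Library totals ran from 16400556 to 24152314 counts. The members together took between 0.190% (95% Wilson interval 0.188% to 0.193%) of the counts, in R63494_1, and 0.446% (95% Wilson interval 0.443% to 0.449%), in R62848_1. These intervals cover counting error only. Of the 51 members, 38 passed the filter on low counts (17 Mmp, 13 Adamts, 5 Adamtsl and 3 Timp genes), among 15795 genes that did. The 12 markers of cholangiocytes, the cells that line bile ducts, summed to 6693 to 9497 counts scaled to library size (CPM) over the 17 libraries, and all 12 passed the filter. Pancreatic acinar genes took 0.537% (0.534% to 0.541%), 2.16% (2.15% to 2.16%) and 10.3% (10.3% to 10.4%) of the counts in the R62850 libraries, against 0.00405% to 0.0151% elsewhere. Y-linked genes had counts only in R62850 and R63494, whose 5 libraries had 0.650 to 5.92 CPM of Xist, against 668 to 1499 CPM in the other 12. In the contrasts of these 2 codes, sex and whatever else a code stands for cannot be told apart. Each remaining code was compared with a mean that includes these 2 codes, so sex enters its contrast too.

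Levels per gene length, in reads per kilobase scaled to library size (RPKM), put 2 inhibitors and the epithelial protease Mmp7 at the top. Timp2 had a median of 128 RPKM, at percentile 97.7 of the protein-coding genes kept. Mmp7, matrilysin, a small protease secreted by glandular epithelium, followed with a median of 112 RPKM and Timp3 with 91 RPKM. Next came Mmp14, the membrane-bound activator of pro-MMP2, with 78 RPKM, and Mmp2, gelatinase A, with 63.6 RPKM. Mmp15 (53.3 RPKM), Mmp28 (37.1 RPKM), Timp1 (26 RPKM), Adamts2 (21.7 RPKM), Adamtsl4 (15.3 RPKM), Mmp23 (13.2 RPKM) and Adamts10 (10.3 RPKM) completed the 12 highest. The ranges over libraries of neighbours in this order overlapped. RPKM rests on the gene lengths of the authors' table. These were 2597 bases for Mmp14 and 5453 for Adamts10, against 5960 and 8254 exon bases in the GENCODE M21 annotation. For Timp2 and Mmp7 both lengths were the same. Ranks and sums of RPKM may therefore change with the length used. At the low end of the kept members stood Mmp16, with a median of 0.111 RPKM, and Mmp17, with 0.219 RPKM.

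**Figure D1:**
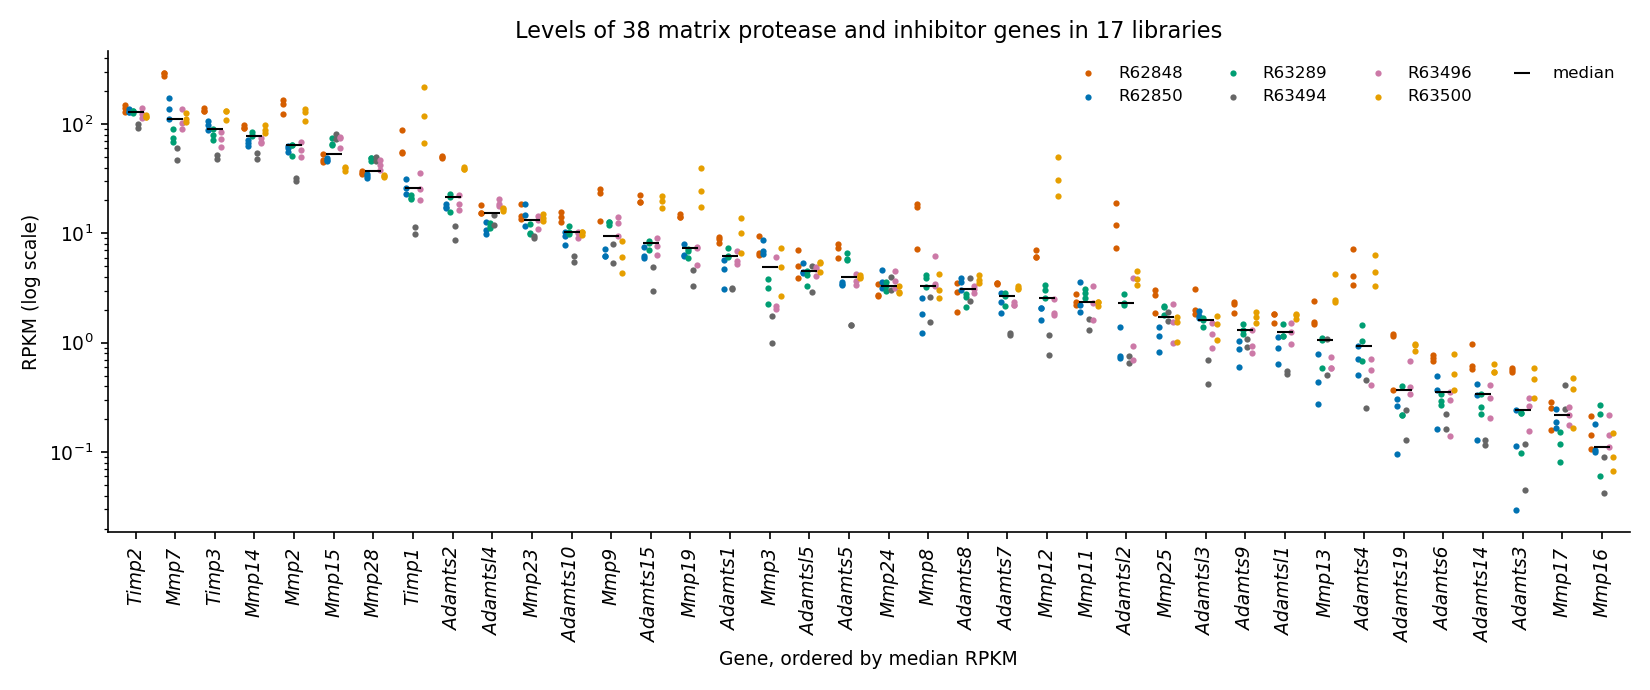
RPKM on a log axis of the 38 members that passed the filter, 1 point per library, coloured by code, with a black tick at the median over the 17 libraries. Timp2 and Mmp28 form tight columns of points, whereas Mmp12 spreads from 0.772 to 49.9 RPKM and has the largest SD of log2 CPM of the 38.

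Most members differed between codes. In edgeR's quasi-likelihood F test over the 6 codes, 32 of the 38 members had a Benjamini-Hochberg adjusted p below 0.05, against a background of 48.7% of all genes tested. The 6 others were Mmp11, Mmp16, Mmp17, Mmp24, Adamts8 and Adamtsl5. The median SD of log2 CPM over the 17 libraries was 0.65 for the members and 0.27 for all genes kept.

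The members stood high in R62848, next in R63500, and low in R63494. Each code was set against the mean of the other 5 in the same fit. In R62848, 29 members were higher and 2 were lower than in the other codes, where 15.2% and 10.6% of all genes were called in these directions. In R63500, 18 members were higher and 3 were lower, against 13.2% and 8.93% of all genes. Of 17 Mmp genes, 5 were higher and 3 lower there, with a median log2 fold change of 0.01. Of 13 Adamts genes 9 were higher (median 0.89), of 5 Adamtsl genes 2 and of 3 Timp genes 2, with none of these lower. In R63494, 2 members were higher and 23 were lower, against 9.30% and 10.6% of all genes. The median log2 fold change of the members was 0.88 in R62848, 0.45 in R63500 and -1.06 in R63494, and that of all genes was 0.01 in each.

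The remaining codes gave fewer calls. R62850 had 2 members higher and 15 lower, against 11.7% and 12.8% of all genes. This count rested on few libraries: the 17 calls became 6 without R62850_1, 11 without R62850_2 and 11 without R63494_1. R63289 had 3 members higher and 2 lower, against 2.44% and 2.17%, and its 5 calls became 3, 3 and 2 without R63289_1, R63289_2 and R63289_3. R63496 had 2 higher and 3 lower, against 4.98% and 6.52%, and its 5 calls became 2 without R63496_2. All contrasts share libraries, so they are not independent of each other.

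**Figure D2:**
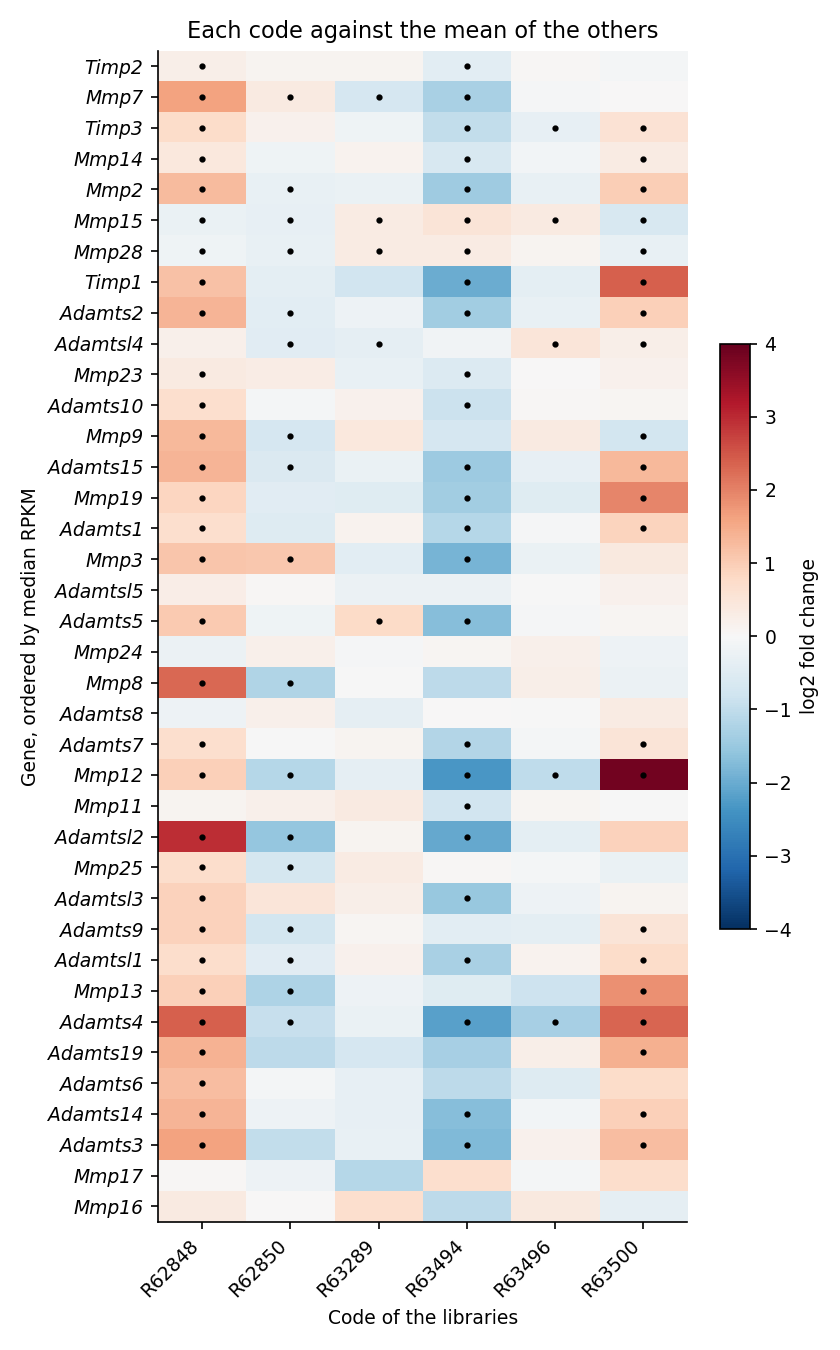
Log2 fold change of each of the 38 tested members (rows) in each code against the mean of the other 5 codes (columns), with a dot where the adjusted p was below 0.05. The R62848 and R63500 columns are mostly positive and the R63494 column mostly negative. Called against that pattern were Mmp15 and Mmp28 in each of these columns, and Mmp9 in R63500.

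Both R63494 libraries lay below all other libraries for 18 of the 38 members, against 5.62% of all genes. All 3 R62848 libraries lay above all other libraries for 6 members (Mmp7, Mmp8, Adamts2, Adamts7, Adamts10 and Adamtsl2), against 2.87% of all genes. The R63500 libraries lay above all others for Mmp12 and Mmp19 (2 members, against 2.32%) and below all others for Mmp15 (1 member, against 1.50%). The mean log2 CPM was highest in R62848 for 23 members, or 60.5%, against 18.7% of all genes. It was highest in R63500 for 8 members, or 21.1%, a share near the 18.3% of all genes.

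Markers of several cell types moved with these codes, those of fibroblasts, a main source of matrix proteases, among them. The shares of all genes called higher and lower were 15.2% and 10.6% in R62848, 13.2% and 8.93% in R63500, and 9.30% and 10.6% in R63494. All 8 fibroblast markers were higher in R62848 and all 8 lower in R63494, and 6 of 8 were higher in R63500. Their summed level was 6646 to 7162 CPM in R62848, 6771 to 7938 CPM in R63500, 1901 to 2073 CPM in R63494 and 2856 to 4440.3 CPM in the other 3 codes, and none was at 0 throughout. Of 5 endothelial markers 3 were higher in R62848, 3 higher in R63500 and 3 lower in R63494, and their sum was 338 to 367 CPM in R62848, 247 to 304 CPM in R63500 and 174 to 219.9 CPM in R63494, against 177 to 227 CPM in the rest. Of 6 smooth muscle and mural markers 4 were higher in R62848, 4 higher in R63500 and 2 lower in R63494, and their sum was 406 to 453 CPM in R62848, 268 to 384 CPM in R63500 and 246 to 277 CPM in R63494, against 221 to 353 CPM in the rest. Of 3 erythroid markers 3 were higher in R62848, 3 higher in R63500 and 2 lower in R63494, and their sum was 286 to 301 CPM in R62848, 113 to 142 CPM in R63500 and 49.4 to 75.9 CPM in R63494, against 47.1 to 107 CPM in the rest. Cholangiocyte markers went partly the other way: of 12, 1 was higher and 6 were lower in R62848, 2 were higher and 2 lower in R63500, and 4 were higher and 3 lower in R63494. Lower calls of fibroblast, endothelial, mural and erythroid markers were not confined to R63494. In R63496, 3 erythroid, 2 endothelial and 2 mural markers were lower, against 6.52% of all genes. In R63289, 2 erythroid and 2 fibroblast markers were lower, against 2.17%. In R62850, 3 fibroblast, 1 endothelial and 1 mural marker were lower and 1 fibroblast marker higher, against 12.8% and 11.7%. Of 3 tested hepatocyte markers, 2 were lower in R62848 and 1 in R63500, and 3 tested nerve and Schwann cell markers gave the same counts. The part of any of these cell types in the members' differences was not tested. In bulk tissue, fewer cells of a type and less RNA per cell cannot be told apart.

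The 4 TIMP inhibitors behaved unequally. Timp2 (ENSMUSG00000017466, mm10 chromosome 11, from 118301069 to 118355740), which also takes part in the activation of pro-MMP2 by MMP14, had the narrowest range of them, at 356, 501 and 579 CPM in the lowest, median and highest library. It was lower in R63494, at 389 and 356 CPM, against 445 to 579 CPM in the other codes (log2 fold change -0.43 ± 0.08, adjusted p = 0.00106; here and below ± is the standard error of the log2 fold change). Timp3 (ENSMUSG00000020044, mm10 chromosome 10, from 86300372 to 86349506), which binds to the matrix and also inhibits ADAM and ADAMTS enzymes, had 387 and 426 CPM in R63494, against 502 to 1138 CPM in the others (log2 fold change -0.99 ± 0.12, adjusted p = 8.83e-06). It was higher in R62848, at 1138, 1070.1 and 1067 CPM (log2 fold change 0.72 ± 0.09, adjusted p = 5.18e-06), and in R63500, at 878, 1073 and 1081 CPM (log2 fold change 0.59 ± 0.09, adjusted p = 7.06e-05). Both inhibitors thus stood lowest in R63494, where neither library overlapped with any other. The lower call of Timp3 in R63496 (-0.33 ± 0.10) was lost without R63496_1, R63496_2, R62848_3 or R63500_3. Of the 51 members, 13 share exon bases with a gene on the opposite strand in the GENCODE M21 annotation. For Timp3, 21.3% of the exon bases also lie in exons of Syn3. The strand setting of the counting was not stated, so reads of the pair may not be separated.

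Timp1 (ENSMUSG00000001131, mm10 chromosome X, from 20870166 to 20874735), the inhibitor most readily induced by inflammation and injury, varied far more, at 8.72, 23 and 192 CPM. The R63500 libraries had 59, 192 and 106 CPM, against 8.72 to 79 CPM elsewhere (log2 fold change 2.39 ± 0.24, adjusted p = 2.29e-05). R62848_2 lay within the R63500 range, and R63500_2 was the highest library. Timp1 was also higher in R62848, at 48.4, 79 and 48.9 CPM (log2 fold change 1.17 ± 0.26, adjusted p = 0.00625), a call lost without R62848_2 (log2 fold change 0.90, adjusted p = 0.0714). It was lower in R63494, at 8.72 and 10.1 CPM (log2 fold change -2.00 ± 0.41, adjusted p = 0.00456), lost without R63494_1 (log2 fold change -1.91, adjusted p = 0.0626). The weak rise of Timp2 in R62848 (0.23 ± 0.07) was lost without R62848_1 and without R62848_3. Timp4 did not pass the filter, with 146 counts over all libraries.

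Among the gelatinases and membrane-type enzymes, Mmp2 followed the general pattern closely. Mmp2 (ENSMUSG00000031740, mm10 chromosome 8, from 92827328 to 92853417), which cuts denatured collagen and basement membrane collagen, had 375, 502 and 463 CPM in R62848 (log2 fold change 1.28 ± 0.09, adjusted p = 7.18e-09) and 391, 417 and 325 CPM in R63500 (log2 fold change 0.99 ± 0.09, adjusted p = 2.98e-07). In R63494 it had 96.7 and 91.9 CPM (log2 fold change -1.41 ± 0.13, adjusted p = 6.71e-07), against 153 to 209.8 CPM in the remaining 3 codes. R62848 and R63500 overlapped with each other and lay above all remaining libraries, and R63494 lay below them. Mmp14 moved in the same directions over a narrower range, at 125 and 140.1 CPM in R63494, against 163 to 257 CPM in all others (log2 fold change -0.64 ± 0.08, adjusted p = 2.09e-05). A small lower call of Mmp2 in R62850 (-0.29 ± 0.10) was lost under 13 of 22 alternatives. Mmp14 was higher by a log2 fold change of 0.41 ± 0.06 in R62848 and 0.34 ± 0.07 in R63500.

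Mmp9 (ENSMUSG00000017737, mm10 chromosome 2, from 164940780 to 164955850), gelatinase B, a product of neutrophils and macrophages, was higher in R62848, at 45.7, 90.1 and 83 CPM, against 15.5 to 49.7 CPM elsewhere (log2 fold change 1.30 ± 0.19, adjusted p = 0.000183). R62848_1 lay within the range of the other codes. In R63500 Mmp9 had 30.2, 15.5 and 21.6 CPM (log2 fold change -0.74 ± 0.22, adjusted p = 0.0265), a lower level whose call was lost without R63500_2 and without R63500_3. Its lower call in R62850 (-0.68 ± 0.22) was lost under 10 of 22 alternatives. The 9 neutrophil markers summed to 879.7, 1538 and 1489 CPM in R62848 and to 462, 257 and 356 CPM in R63500, against 566 to 1516 CPM in the other codes. Of the 4 of these markers that were tested, 3 were higher in R62848 and 4 lower in R63500, and Mpo and Elane had medians of 0 CPM. Their part in the Mmp9 values was not tested.

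The membrane-type gene Mmp15 (ENSMUSG00000031790, mm10 chromosome 8, from 95352268 to 95374293) ran against most of the family. It had 316 and 352 CPM in R63494, against 163 to 330.1 CPM in the other codes (log2 fold change 0.53 ± 0.09, adjusted p = 0.000174), and 176, 163 and 172 CPM in R63500, against 194 to 352 CPM (log2 fold change -0.64 ± 0.08, adjusted p = 8.44e-06). The 3 R63500 libraries were the 3 lowest, and R63494_1 lay within the range of the other codes. It was also higher in R63496 (0.37 ± 0.07). Its calls in R62848 (-0.27 ± 0.08, adjusted p = 0.131 without R62848_2), R62850 (adjusted p = 0.0525 without R62850_1) and R63289 (adjusted p = 0.208 without R63289_1) each hung on single libraries. Mmp25, an enzyme of leukocytes held in the membrane by a lipid anchor, differed between codes (adjusted p = 0.0295), but not without R62848_2 (adjusted p = 0.101), R62848_3 (0.0898), R62850_1 (0.0795) or R62850_3 (0.0528). Its higher call in R62848 (0.71 ± 0.21) was lost without R62848_2 or R62848_3, and its lower call in R62850 (-0.70 ± 0.24) under 9 of 22 alternatives. The other membrane-type genes did not pass the between-code test: Mmp24 had 12.4, 15.3 and 21.5 CPM, Mmp17 0.353, 0.961 and 2.11 CPM and Mmp16 0.363, 0.961 and 2.32 CPM in the lowest, median and highest library. For Mmp17 the 3 R63289 libraries were the 3 lowest (1 member, against 0.481% of all genes). This order rested on few reads, at 7, 9 and 12 counts in R63289 against 12 to 42 in the other libraries.

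A row of 10 Mmp genes lies on mm10 chromosome 9 between 7272514 and 7699585, a span of 427 kb that holds 11 protein-coding genes. In order of position they are Mmp13, Mmp12, Mmp1b, Mmp3, Mmp1a, Mmp10, Mmp8, Mmp27, Mmp20 and Mmp7. They include collagenases, stromelysins, metalloelastase and matrilysin, many of which are known to respond to the factor AP-1 through a site just before the start. The starts of 6 of them are printed because these neighbours differ in level and in the code in which they were high. Mmp12 and Mmp7 each have another listed start, and the start with an AP-1 match was the one printed. Each stretch runs from 130 bases before to 20 bases after a RefSeq start on the + strand of GRCm38.p6, with capitals marking matches to TGANTCA, the AP-1 motif, and to the TATA box letters TATAAA on either strand. The stretches are chr9:7272384-7272533 (Mmp13), chr9:7347244-7347393 (Mmp12, at a start downstream of another listed one), chr9:7445692-7445841 (Mmp3), chr9:7502212-7502361 (Mmp10), chr9:7558299-7558448 (Mmp8) and chr9:7691960-7692109 (Mmp7).
Mmp13: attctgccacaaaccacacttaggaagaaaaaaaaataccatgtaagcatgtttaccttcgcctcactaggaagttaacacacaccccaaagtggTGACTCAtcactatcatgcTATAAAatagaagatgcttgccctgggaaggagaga
Mmp12: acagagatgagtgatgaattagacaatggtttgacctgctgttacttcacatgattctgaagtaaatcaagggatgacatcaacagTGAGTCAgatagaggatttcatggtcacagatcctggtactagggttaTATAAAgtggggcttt
Mmp3: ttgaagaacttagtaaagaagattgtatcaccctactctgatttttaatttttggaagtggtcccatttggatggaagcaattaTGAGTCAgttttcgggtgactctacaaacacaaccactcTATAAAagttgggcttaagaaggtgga
Mmp10: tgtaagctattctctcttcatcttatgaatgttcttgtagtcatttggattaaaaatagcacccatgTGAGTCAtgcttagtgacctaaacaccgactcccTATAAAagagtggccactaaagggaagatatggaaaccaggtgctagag
Mmp8: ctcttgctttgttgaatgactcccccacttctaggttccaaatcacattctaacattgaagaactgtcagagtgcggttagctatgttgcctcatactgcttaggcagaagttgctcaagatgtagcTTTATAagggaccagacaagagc
Mmp7: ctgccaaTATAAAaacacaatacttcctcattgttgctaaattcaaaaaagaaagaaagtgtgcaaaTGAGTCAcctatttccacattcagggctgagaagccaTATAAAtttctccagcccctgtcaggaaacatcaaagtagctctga

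In windows from 250 bases before to 50 after each start, which matched 36 of the 51 members, the letters TGANTCA, their own reverse complement, occurred in 8 members. All 8 belong to the row on chromosome 9: Mmp13, Mmp12, Mmp1b, Mmp3, Mmp1a, Mmp10, Mmp20 and Mmp7. The same letters occurred in 8.97% of the 27025 genes with such a window. TATAAA, searched on both strands, occurred in 12 of the 36 members and in 15.7% of all these genes. The AP-1 match began 35 bases before the start in Mmp13, 44 in Mmp12, 46 in Mmp3 and 63 in Mmp10 and Mmp7. The windows of the other listed starts of Mmp12 (chr9:7344147-7344446) and Mmp7 (chr9:7692091-7692390) held no match to either motif. A match is a description of the letters and does not show that a factor binds, and Mmp1a, Mmp1b and Mmp20 carry it with next to no reads.

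The neighbours were high in different codes. Mmp7 (ENSMUSG00000018623, mm10 chromosome 9, from 7692090 to 7699585) was highest in R62848, at 296, 315 and 315 CPM, against 49.9 to 184 CPM in all other libraries (log2 fold change 1.62 ± 0.11, adjusted p = 3.94e-08). It was lowest in R63494, at 65.1 and 49.9 CPM, against 72.5 to 315 CPM (log2 fold change -1.29 ± 0.17, adjusted p = 5.82e-05). In R63500 Mmp7 had 135, 119 and 111 CPM and did not pass the test (log2 fold change 0.01 ± 0.13, adjusted p = 0.961). Its lower value in R63289 (-0.66 ± 0.14) lost its call without R63289_2 (adjusted p = 0.0879) and without R63289_3 (adjusted p = 0.0651). Its higher value in R62850 (0.37 ± 0.12) was lost under 12 of 22 alternatives. In the annotation 11.5% of the exon bases of Mmp7 are shared with the antisense gene AV064505.

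Mmp12 (ENSMUSG00000049723, mm10 chromosome 9, from 7344381 to 7369499), the elastin-cutting protease of macrophages, had the largest SD of log2 CPM among the kept members and stood out in R63500. Its 3 libraries there had 223, 159.9 and 361 CPM, against 5.59 to 51.4 CPM in the other 14 libraries, with no overlap (log2 fold change 3.86 ± 0.16, adjusted p = 4.22e-09). Leaving out each library in turn kept the log2 fold change between 3.46 and 4.08. Mmp12 was lower in R63494, at 8.59 and 5.59 CPM (log2 fold change -2.32 ± 0.30, adjusted p = 0.000124), and in R62850, at 15.2, 11.6 and 15.2 CPM (log2 fold change -1.13 ± 0.23, adjusted p = 0.00342). It was higher in R62848, at 51.4, 44.2 and 43.7 CPM (log2 fold change 0.96 ± 0.19, adjusted p = 0.00211). The lower value in R63496 (-1.01 ± 0.22) was lost without R63496_2 (adjusted p = 0.0803). The 6 macrophage markers analysed summed to 554 to 695 CPM in R63500 and 321 to 387 CPM in R63494, against 413 to 684 CPM in the other codes. Of the 6, 3 were higher in R63500, 5 higher in R62848 and 4 lower in R63494, and none was at 0 throughout. Among them Cd68 was at 77.7, 63.9 and 75.4 CPM in R63500, against 18.5 to 45.4 CPM in every other library, with no overlap. Each of the other macrophage markers overlapped in R63500 with other codes. Mrc1, at 42.9, 30.3 and 42.6 CPM in R63500, lay below R62848, at 58.5, 64.1 and 58.5 CPM. The part of these markers in the Mmp12 values was not tested.

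Mmp8 (ENSMUSG00000005800, mm10 chromosome 9, from 7558429 to 7568486), the collagenase of neutrophils, was high in R62848, at 17.5, 42.8 and 45.4 CPM, against 3.02 to 15.2 CPM elsewhere (log2 fold change 2.30 ± 0.24, adjusted p = 6.13e-06). Of the neutrophil markers, Ngp, a granule protein gene, was at 7.17, 8.24 and 10.3 CPM in R62848, against 0 to 2.38 CPM elsewhere, with no overlap. Ngp did not pass the filter, and the more abundant markers overlapped with other codes. R62848_1 had 340 CPM of S100a9, 255 of S100a8, 222 of Csf3r and 53.4 of Cxcr2. All were below R63289_1, at 376, 301, 370 and 64.5 CPM. The part of neutrophils in the Mmp8 values was not tested. Mmp8 was lower in R62850, at 4.45, 6.28 and 3.02 CPM (log2 fold change -1.21 ± 0.32, adjusted p = 0.0137), but not without R62850_1 (adjusted p = 0.0725) or R62850_3 (adjusted p = 0.0691). Its window holds no AP-1 match.

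Mmp13, the main interstitial collagenase of mice, was higher in R63500, at 6.25, 6.60 and 11.3 CPM (log2 fold change 1.84 ± 0.26, adjusted p = 3.47e-05), against 0.733 to 6.43 CPM elsewhere. The groups overlapped at the lower end of R63500. In R62850 it had 0.733, 2.13 and 1.17 CPM (log2 fold change -1.25 ± 0.34, adjusted p = 0.0127), lost without R62850_1 (adjusted p = 0.105) or R62850_3 (adjusted p = 0.0513). Its call in R62848 (0.96 ± 0.28) was lost without R62848_1 (adjusted p = 0.13). Mmp3, stromelysin-1, stood at 1.78, 8.86 and 17 CPM. It was called higher in R62848 (1.10 ± 0.29, adjusted p = 0.0749 without R62848_1) and R62850 (1.06 ± 0.29) and lower in R63494 (-1.87 ± 0.45, adjusted p = 0.136 without R63494_2). The call in R62850 was lost without R62850_1. The rest of the row stayed under the filter. Mmp10 had 179 counts over all 17 libraries, Mmp27 100, Mmp20 25 and Mmp1b 2, and Mmp1a had 0. The Mmp10 counts were 52, 28 and 38 in R63500 and 8, 21 and 13 in R62848, against 0 to 13 elsewhere. Mmp1a and Mmp1b are close copies, so reads may be split between them or lost, and their near absence is uncertain. Mmp1b also shares 157 exon bases with Mmp12 on the opposite strand.

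**Figure D3:**
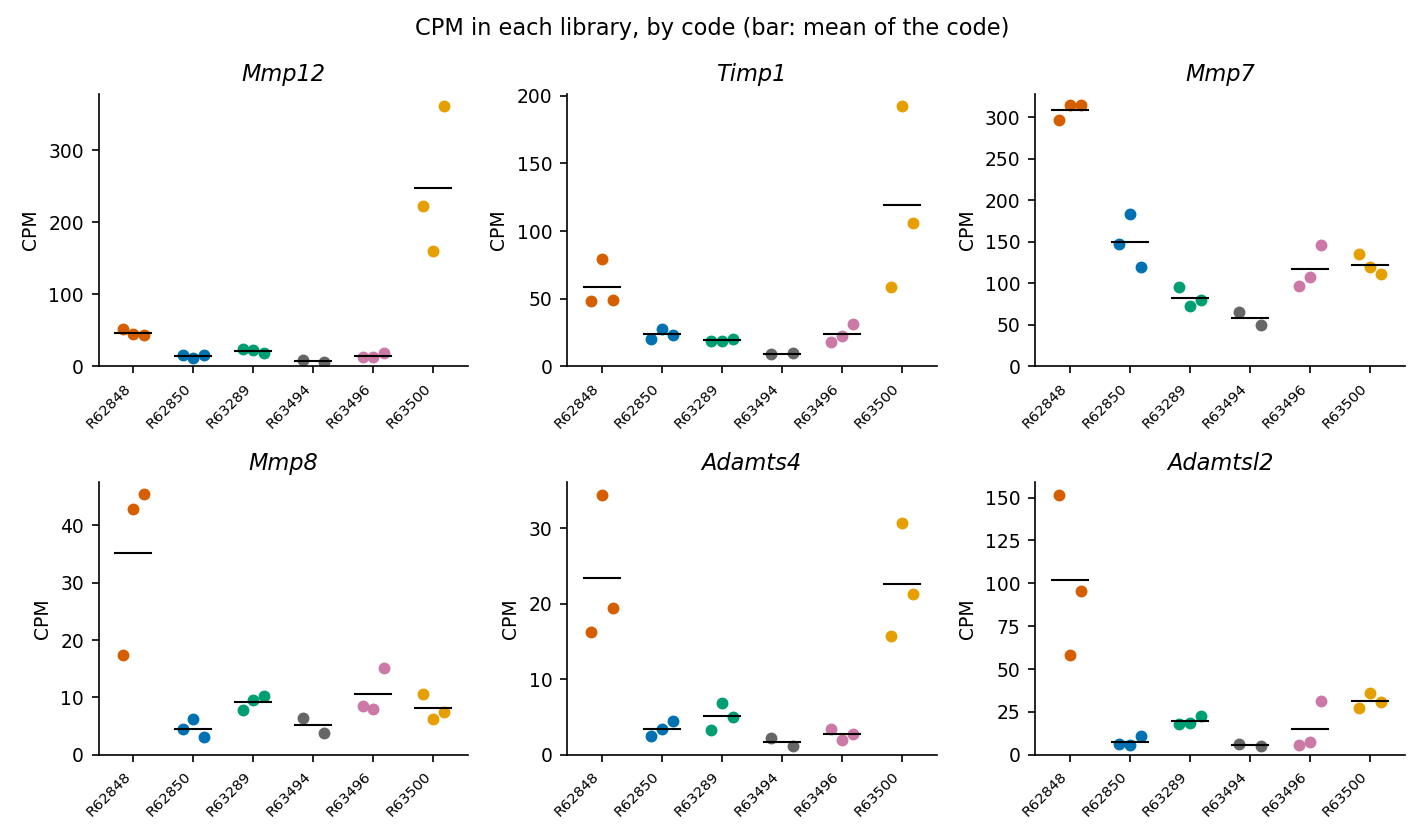
CPM of Mmp12, Timp1, Mmp7, Mmp8, Adamts4 and Adamtsl2 in each of the 17 libraries, grouped by code, with a bar at the mean of the code and axes from 0. Mmp12 and Timp1 are highest in R63500, Mmp7, Mmp8 and Adamtsl2 in R62848, and Adamts4 in both codes.

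The other 5 Mmp genes divided. Mmp19 (ENSMUSG00000025355, mm10 chromosome 10, from 128790953 to 128800824), which cuts basement membrane proteins, was higher in R63500, at 59.4, 135 and 82.7 CPM, against 11.3 to 51.2 CPM in all other libraries (log2 fold change 1.94 ± 0.16, adjusted p = 8.93e-07), and lower in R63494, at 15.7 and 11.3 CPM (log2 fold change -1.40 ± 0.25, adjusted p = 0.00122). In the annotation 22.3% of its exon bases are shared with Tmem198b on the opposite strand. Mmp28, epilysin, an epithelial MMP, stood at 126, 144 and 192 CPM. Like Mmp15 it was higher in R63494, at 179 and 192 CPM (log2 fold change 0.33 ± 0.07, adjusted p = 0.00265; adjusted p = 0.0714 without R63494_2), and in R63289, at 177, 191 and 190.0 CPM (log2 fold change 0.33 ± 0.06, adjusted p = 0.00258), and it was lower in R63500 (-0.29 ± 0.06) and R62850 (-0.29 ± 0.06). Its lower call in R62848 (-0.18 ± 0.06) was lost under 8 of 22 alternatives. Mmp23, an MMP with a membrane-anchoring prodomain, stood at 21.2, 31 and 43.8 CPM. Its calls in R62848 (0.36 ± 0.12) and R63494 (-0.54 ± 0.15) were lost without single libraries, with an adjusted p of 0.257 without R62848_1 and of 0.127 without R63494_1. Mmp11, stromelysin-3, had 3.39, 6.09 and 9.33 CPM and no between-code call (adjusted p = 0.176). Its lower call in R63494 (-0.76 ± 0.26) was lost under 13 of 22 alternatives. Mmp21 had 3 counts in all.

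The ADAMTS enzymes were called in shared directions. Of 13 tested Adamts genes, 12 were higher in R62848, against 15.2% of all genes, 9 were higher in R63500, against 13.2%, and 9 were lower in R63494, against 10.6%. No Adamts gene was called in the opposite direction in these codes. The procollagen N-proteinases, which remove the N-propeptide from fibrillar procollagens, were led by Adamts2 (ENSMUSG00000036545, mm10 chromosome 11, from 50602084 to 50807573). It had 476, 455 and 466 CPM in R62848 (log2 fold change 1.36 ± 0.09, adjusted p = 4.81e-09), 359, 377 and 359.7 CPM in R63500 (log2 fold change 0.94 ± 0.10, adjusted p = 7.73e-07) and 81.9 and 109 CPM in R63494 (log2 fold change -1.38 ± 0.14, adjusted p = 1.10e-06), against 146 to 215 CPM in the remaining codes. These 4 sets of libraries did not overlap. Adamts2 was also lower in R62850 (-0.43 ± 0.11), as was Adamts15 (-0.59 ± 0.13). Its relatives Adamts3 and Adamts14 were lower in abundance, at 0.225, 1.85 and 4.47 CPM and at 0.606, 1.75 and 5.09 CPM. Both were higher in R62848 (log2 fold changes 1.62 ± 0.34 and 1.37 ± 0.27) and in R63500 (1.25 ± 0.35 and 0.96 ± 0.28) and lower in R63494 (-1.77 ± 0.55 and -1.70 ± 0.43). The R63494 calls fell away without R63494_2 for Adamts3 (adjusted p = 0.305) and without R63494_1 (0.0606) or R63494_2 (0.0933) for Adamts14. The R63500 call of Adamts14 was lost without R63500_2 (adjusted p = 0.109) or R63500_3 (0.0525).

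Among the proteoglycanases, which cut aggrecan, versican or related core proteins, Adamts4 (ENSMUSG00000006403, mm10 chromosome 1, from 171250421 to 171260637) had the largest log2 fold changes. It had 16.3, 34.4 and 19.4 CPM in R62848 (log2 fold change 2.39 ± 0.23, adjusted p = 1.07e-06) and 15.7, 30.7 and 21.3 CPM in R63500 (log2 fold change 2.33 ± 0.23, adjusted p = 1.92e-06), against 1.21 to 6.92 CPM elsewhere. In R63494 it had 2.18 and 1.21 CPM (log2 fold change -2.19 ± 0.41, adjusted p = 0.00104). The lower value in R63496 (-1.33 ± 0.31) was lost without R63496_2 (adjusted p = 0.0998) or R63496_3 (adjusted p = 0.0502), and that in R62850 (-0.93 ± 0.30) was lost under 5 of 22 alternatives. Adamts5 (ENSMUSG00000022894, mm10 chromosome 16, from 85858170 to 85901125), the other main aggrecanase, did not follow Adamts4 in R63500, where it had 31.5, 32.5 and 33.9 CPM and did not pass the test (log2 fold change 0.08 ± 0.09, adjusted p = 0.567). It was higher in R62848, at 64.3, 47.8 and 59.2 CPM (log2 fold change 1.05 ± 0.08, adjusted p = 1.99e-08), and in R63289, at 46.3, 53.5 and 47 CPM (log2 fold change 0.78 ± 0.08, adjusted p = 1.20e-05), and lower in R63494, at 11.7 and 11.8 CPM (log2 fold change -1.69 ± 0.12, adjusted p = 2.85e-08).

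Adamts15 had 116, 132 and 115 CPM in R62848, 129, 116 and 101 CPM in R63500 and 17.6 and 29.1 CPM in R63494, against 35.6 to 53.3 CPM in the rest. Its log2 fold changes were 1.37 ± 0.11, 1.29 ± 0.11 and -1.47 ± 0.17, all called. Adamts1 was higher in R63500 (0.89 ± 0.17) and lower in R63494 (-1.15 ± 0.23). Its higher value in R62848 (0.66 ± 0.17) missed the threshold without R62848_2 (adjusted p = 0.0513). Adamts9 was higher in R62848 (0.92 ± 0.14) and lower in R62850 (-0.73 ± 0.16). It was also called in R63500 (0.52 ± 0.14), but not without R63500_2 (adjusted p = 0.132) or R63500_3 (adjusted p = 0.0643). Adamts8 did not differ past the threshold, at 8.89, 14.2 and 19.1 CPM (between-code adjusted p = 0.135).

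Of the remaining Adamts genes, Adamts10, linked to fibrillin microfibrils, had 84.9, 68.8 and 76.5 CPM in R62848, against 29.7 to 64.2 CPM in the others (log2 fold change 0.66 ± 0.08, adjusted p = 6.23e-06), and 29.7 and 33.6 CPM in R63494 (log2 fold change -0.87 ± 0.11, adjusted p = 1.46e-05). Adamts7, which cuts the cartilage protein COMP, was higher in R62848 (0.67 ± 0.11) and R63500 (0.51 ± 0.11) and lower in R63494 (-1.18 ± 0.15). Adamts6 was higher in R62848 (1.22 ± 0.29) at a median of 1.69 CPM. Adamts19, with a median of 1.71 CPM, was higher in R63500 (1.42 ± 0.32) and in R62848 (1.38 ± 0.32; adjusted p = 0.0579 without R62848_2). Adamts12, with 1614 counts over the 17 libraries, was left out by a filter that asks for a level in 15 of them. It had 8.09, 16.3 and 7.78 CPM in R62848 and 12.5, 14.2 and 12.5 CPM in R63500, against 0.0564 to 2.27 CPM in the rest. Under the filter were also Adamts20, with 210 counts, Adamts13, the protease of von Willebrand factor, with 198, Adamts17 with 129, Adamts16 with 42 and Adamts18 with 10.

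The ADAMTS-like proteins have no protease domain, and several are known to bind fibrillin microfibrils. Adamtsl2 (ENSMUSG00000036040, mm10 chromosome 2, from 27079379 to 27108981) varied widely, at 5.20, 18.4 and 152 CPM. It had 152, 58.2 and 95.3 CPM in R62848, against 5.20 to 36 CPM in all other libraries (log2 fold change 2.96 ± 0.36, adjusted p = 9.93e-05). It was lower in R63494, at 6.05 and 5.20 CPM (log2 fold change -2.06 ± 0.63, adjusted p = 0.0380), lost under 8 of 22 alternatives, and in R62850, at 6.09, 5.84 and 11 CPM (log2 fold change -1.54 ± 0.50, adjusted p = 0.0451), lost under 14. Adamtsl1 was higher in R62848 (0.71 ± 0.14) and R63500 (0.73 ± 0.14) and lower in R63494 (-1.31 ± 0.20). Its lower value in R62850 (-0.45 ± 0.16) was lost under 7 of 22 alternatives, with an adjusted p of 0.313 without R62850_1. Adamtsl3 was higher in R62848 (0.91 ± 0.17) and lower in R63494 (-1.52 ± 0.25). Adamtsl4, the most abundant of the 5, had 78.4, 87 and 74.9 CPM in R63496 (log2 fold change 0.49 ± 0.08, adjusted p = 0.000592) and 41.5, 52.8 and 44.9 CPM in R62850 (log2 fold change -0.46 ± 0.09, adjusted p = 0.000898), against 47.2 to 75.6 CPM in the others. Its call in R63289 (-0.35 ± 0.08) was lost without any of the 3 R63289 libraries, and that in R63500 (0.24 ± 0.08) under 6 of 22 alternatives. Adamtsl5 did not differ past the threshold, at 13.9, 21.2 and 33 CPM (between-code adjusted p = 0.374).

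Summed RPKM gave a view of inhibitors against proteases in each library. The Timp sum was 326 to 349.6 RPKM in R62848, 290.0 to 464 in R63500 and 155 to 157 in R63494, against 196 to 275 in the rest. The Mmp sum was 663 to 735 RPKM in R62848, 486 to 521 in R63500 and 291 to 295 in R63494, against 360.4 to 443 in the rest. The ratio of the Timp sum to the Mmp sum lay between 0.456, in R62848_3, and 0.925, in R63500_2, with a median of 0.567. The ratio was 0.456 to 0.517 in R62848, 0.620 to 0.706 in R62850, 0.565 to 0.648 in R63289, 0.532 to 0.533 in R63494, 0.523 to 0.602 in R63496 and 0.557 to 0.925 in R63500.

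The make-up of both sums also differed between libraries. Timp2 and Timp3 together made 53.3 to 77.1% of the Timp sum in R63500, against 74.5 to 93.7% elsewhere, and Timp1 made the rest apart from traces of Timp4. Mmp7 made 40.1 to 41.8% of the Mmp sum in R62848, against 16 to 38.8% elsewhere. Without Mmp7 the Timp sum over the Mmp sum was 0.777 to 0.889 in R62848, 0.977 to 1.02 in R62850, 0.736 to 0.792 in R63289, 0.634 to 0.671 in R63494, 0.688 to 0.875 in R63496 and 0.735 to 1.19 in R63500. Its mean was highest in R62850, at 1.004, against 0.967 in R63500, where R63500_2 gave the top value. The Adamts sum was 116 to 119.7 RPKM in R62848, 97 to 108 in R63500 and 27.5 to 34.7 in R63494, against 44.7 to 65.5 in the rest. The ratios describe RNA and not free enzyme, since MMPs are regulated after translation.

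**Figure D4:**
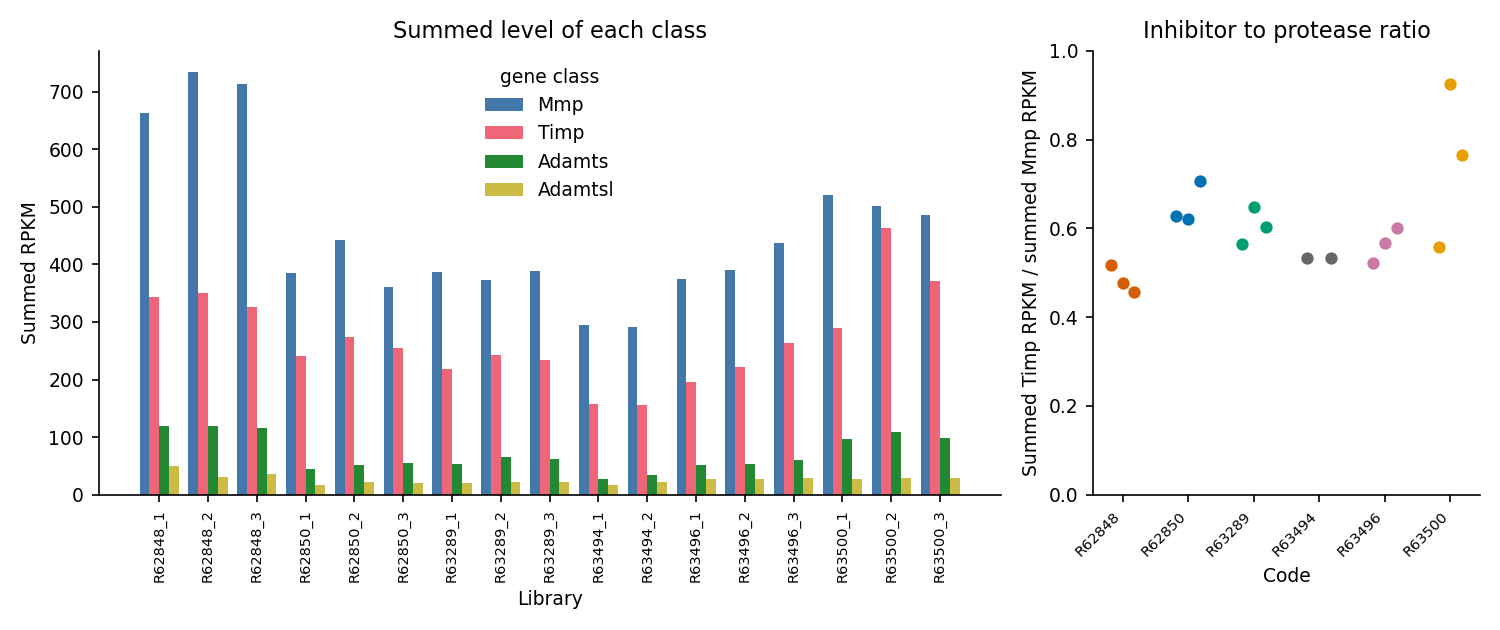
Summed RPKM of the Timp, Mmp, Adamts and Adamtsl genes in each library (bars from 0) and the Timp over Mmp ratio by code (points). The Mmp bars are tallest in R62848, at 663 to 735 RPKM, and the ratio is highest in R63500_2, at 0.925.

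Genes that act beside the matrix proteases were counted in 5 lists. Over all genes, 15.2% were higher and 10.6% lower in R62848, 13.2% and 8.93% in R63500, and 9.30% and 10.6% in R63494. All 14 tested matrix substrates differed between codes: 14 were higher in R62848 (median log2 fold change 1.16), 13 higher in R63500 (1.20) and 13 lower in R63494 (-1.32). In R62850 10 were lower, in R63289 4 and in R63496 2, against 12.8%, 2.17% and 6.52% of all genes, and none was higher. Of the 3 most abundant, Col3a1 had 3293, 3554 and 3177 CPM in R62848 (log2 fold change 1.06 ± 0.09, adjusted p = 4.90e-08), 3168, 3663 and 2823 CPM in R63500 (log2 fold change 1.0 ± 0.09, adjusted p = 1.37e-07) and 758 and 865 CPM in R63494 (log2 fold change -1.39 ± 0.13, adjusted p = 4.75e-07), against 1333 to 1963 CPM in the rest. Bgn, biglycan, moved alike (0.91 ± 0.12, 0.57 ± 0.12 and -1.19 ± 0.16). Dcn, decorin, was the exception in R63500, where it did not pass the test (log2 fold change -0.18 ± 0.09, adjusted p = 0.186).

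The plasminogen system makes plasmin, an activator of pro-MMPs. All 7 tested genes were higher in R63500 (median log2 fold change 1.34), 4 were higher in R62848 (0.44) and 5 were lower in R63494 (-1.0). In R62850 1 was higher and 3 were lower, against 11.7% and 12.8% of all genes. In R63289 1 was lower, against 2.17%, and in R63496 2 were lower, against 6.52%. Anxa2 (0.55 ± 0.10) and S100a10 (0.93 ± 0.18), which together bind plasminogen and its activator, and the urokinase receptor gene Plaur (1.64 ± 0.19) rose in R63500. R63500_2 was the highest library for Anxa2, at 1782 CPM, for S100a10, at 443 CPM, and for Plaur, at 166 CPM. R63500_1 lay within the range of the other codes for Anxa2, at 1063 CPM, and for S100a10, at 185 CPM. For Plaur it had 60.1 CPM, against at most 56.7 CPM in the other codes. Plg, the gene of plasminogen, which the liver makes, was under the filter with a median of 0 CPM.

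Among 12 tested cathepsins and cystatins, 8 were higher and 1 lower in R63500, and 9 were lower in R63494. In R62848, 3 were higher and 1 was lower. The median log2 fold change was 0.30 in R63500, -0.30 in R63494 and 0.04 in R62848. The lysosomal proteases Ctsd (0.30 ± 0.07) and Ctsb (0.37 ± 0.07) were higher in R63500, and the cathepsin inhibitor gene Cst3 was lower there (-0.55 ± 0.10). Among the 10 ADAM sheddases, 3 were higher in R62848, and in R63500 3 were higher and 1 was lower, while in R63494 2 were higher and 2 were lower (medians 0.20, 0.12 and -0.12). The ADAM counts of 1 or 2 of 10 genes were near the shares of all genes in these directions. The abundant Adam9, Adam10 and Adam15 moved little: Adam10, which sheds Notch and other surface proteins, was higher in R63494 (0.35 ± 0.08), and Adam9 was lower in R62850 (-0.36 ± 0.08). Of 19 activators, inducers and other inhibitors, 10 were higher and 3 lower in R62848, 8 higher and 1 lower in R63500, and 1 higher and 6 lower in R63494 (medians 0.36, 0.17 and -0.15). The counts in the other codes follow in the order ADAM genes, cathepsins and cystatins, and the 19 genes just named. R62850 had 0, 2 and 4 higher and 4, 2 and 6 lower, against 11.7% and 12.8% of all genes. R63289 had 0, 1 and 1 higher and 0, 1 and 3 lower, against 2.44% and 2.17%. R63496 had 0, 2 and 2 higher and 0, 1 and 4 lower, against 4.98% and 6.52%. The epithelial protease inhibitor gene Spint2 was lower in R62848 (-0.38 ± 0.10), Bsg, which encodes the MMP inducer basigin, was higher in R62848 (0.36 ± 0.08) and R63500 (0.55 ± 0.07), and St14, the matriptase gene, was higher in R63494 (0.23 ± 0.07).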

How the data were processed

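RNA of 17 mouse bile duct samples was measured. The authors deposited whole read counts per gene, per the file headers, with gene names, lengths and positions. Per the submitters' processing notes, the build was mm10 and the tools, with no role or order stated, included featureCounts, STAR 2.6.1c and edgeR 3.40.2. Neither the annotation release nor the strand setting is given there. Library totals were 16400556 to 24152314 counts. A further 17 value columns were not used. No column name matched a sample title, so libraries are named by column.

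Counts were filtered with edgeR 4.0.16 filterByExpr (R 4.3.3, limma 3.58.1, intercept-only design, which asks for a level worth about 10 counts in at least 15 libraries), scaled with TMM factors and fitted with the robust quasi-likelihood model, 1 coefficient per code. Tests were an F test over the codes and 6 contrasts, each a code minus the mean of the other 5, 2-sided, with Benjamini-Hochberg adjustment over all 15795 genes and a threshold of 0.05. CPM and RPKM use TMM-scaled totals of the kept genes, log2 CPM a prior count of 2. The standard error is the size of the log2 fold change over the root of F. The scripts were tested on simulated data: the between-code test recovered 24 of 50 changed genes at a 1.5-fold change and 39 of 50 at a 2-fold change. The simulation left 15595 of the 15795 genes unchanged, whereas 48.7% of genes were called in the data. Recovery in the data may therefore differ.

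Named in full are the 12 members with the highest median RPKM, the 4 called members with the largest change in each contrast, the 2 with the largest SD, and the 3 most abundant genes of each other list; the rest are given in brief. Members and lists were chosen with earlier results of these data known. Alternatives were DESeq2 1.42.0, its size factors, no filter, a filter by code, scaling without acinar genes, and leaving out each library or code. Positions are those of the table, on mm10. Promoters are RefSeq, GRCm38.p6. Exon overlaps come from GENCODE M21.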

Additional observations from a re-analysis of the deposited data

How the results depend on the processing

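No result reversed under any alternative. Of the 104 member differences called in a code, 65 stayed on the same side of the threshold under all 22 alternatives and 39 lost their call under at least 1. Of the 38 members, 37 kept their side in the between-code test, the exception being Mmp25. Leaving out each library in turn gave 30 to 32 members called between codes (6719 to 7969 of all genes), 24 to 31 in R62848, 6 to 19 in R62850, 2 to 6 in R63289, 18 to 27 in R63494, 2 to 7 in R63496 and 16 to 22 in R63500. The median Timp over Mmp ratio lay between 0.566 and 0.585. Where R63494 lost a library, 1 remained, assumed to vary like the others. DESeq2 called 32 members, as did scaling without acinar genes, and 36 of 50 members were called with no filter on low counts. Leaving out a whole code, chosen after seeing the data, gave 29 to 32 called members. No paired analysis was possible because the labels give a single group and the numbers in the column names pair no libraries. A filter by code kept 44 members and called 36. Depth limits members with few counts, such as the 2 counts of Mmp1b, but not Adamts12, which fell out because it was low in too many libraries.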
